A study of Rattus norvegicus with 18 samples.

Results

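This comparison sets female rats that ate a high-fat diet, and whose grandfathers had eaten one, against females for which both diets were chow. It uses 9 of the 18 arrays of the series: 4 of the high-fat/high-fat group and 5 of the chow/chow group, where the name gives the diet of the founding grandfather (F0) and then that of the female herself. All animals were Sprague-Dawley females of the F2 generation, and the tissue was the extensor digitorum longus, a fast muscle of the lower leg. In the high-fat/high-fat group the F0 founder had been fed a high-fat diet, and the female herself ate a diet with 42/45% of its energy from fat for 12 weeks. In the chow/chow group the founder and the female both ate chow, and the female was kept on it for the same 12 weeks. The other groups, with 1 exposure each, were 4 high-fat/chow and 5 chow/high-fat females; they shared in the estimate of the spread and served to place the combined difference. Each array carried RNA of a separate animal. The labels do not give how many founders stood behind each lineage, so relatives within a group could make the p-values too small, and ages are not given in the sources used here.

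Muscle fibres burn fatty acids in their mitochondria. Long-chain fatty acids are taken up by transport proteins, activated to acyl-CoA esters, passed into mitochondria by the carnitine shuttle and shortened there by beta-oxidation, while peroxisomes shorten the longest chains. Fatty acids also bind the nuclear receptors of the PPAR family, which raise transcription of many of these same genes, and fat that is not burned is stored in droplets coated by perilipins. The extensor digitorum longus is built mainly of fast fibres, which rely on glycolysis more than slow fibres do.

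Values are log2(intensity + 16) after quantile normalization, and a difference is the high-fat/high-fat mean minus the chow/chow mean. The fast-fibre markers Actn3, Ckm, Tnnt3, Mybpc2 and Pvalb lay at or above the 99.5th percentile of all probe sets, and Myh4, Myh1 and Atp2a1 were not analysed here. Deposited array medians ran from 67.52 to 73.97 in the high-fat/high-fat group and from 66.29 to 70.52 in the chow/chow group (two-sided exact permutation p = 0.143, with 0.0159 the smallest possible for 4 against 5 animals). High-fat/high-fat replicate 4 stood apart in several gene groups and is named wherever it does.

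No gene passed the threshold: limma called 0 of 12642 genes at an adjusted p under 0.05, a background share of 0%, and the smallest adjusted p was 0.164. At an unadjusted p under 0.05 there were 1347 genes (10.7%), of which 714 were higher (5.65%) and 633 lower (5.01%) in high-fat/high-fat muscle. Without normalization between arrays this split was 940 higher against 135 lower. Single-gene differences were small, with a median absolute size of 0.080 log2 and a 99th percentile of 0.41. The values of the 4 and 5 animals did not overlap for 622 genes (4.92%), 329 of them higher (2.6%) and 293 lower (2.32%). By sign alone, 48.6% of all genes were higher and 51.4% lower. What follows therefore gives values for single genes and counts for gene groups, and calls no gene changed. Each count of list members at an unadjusted p under 0.05 is to be set beside the 5.65% of all genes higher and 5.01% lower.

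The 10 genes of smallest p that were higher in high-fat/high-fat muscle had mixed roles. They were Ubxn6, a cofactor of the VCP segregase, Crat, the mitochondrial carnitine acetyltransferase, Pex19, the import receptor for peroxisomal membrane proteins, Pxmp4, a peroxisomal membrane protein, Tmem192, a lysosomal membrane protein, and Mrps11, of the small subunit of the mitochondrial ribosome. The others were Nfkbia, the inhibitor that holds NF-kB in the cytoplasm, Aurka, a mitotic kinase, Rps15, a cytosolic ribosomal protein, and Fam53a. Lower were Cers4, a ceramide synthase, Syf2 and Snrpg, components of the splicing machinery, Anp32a and Ptms, acidic nuclear proteins, C1d, a cofactor of the RNA exosome, Prom2, a membrane glycoprotein, Kcng1, a modifying subunit of potassium channels, Rapgef4, an exchange factor for Rap that cyclic AMP activates, and Rpl14l2. In all 20 genes the groups did not overlap, but the genes were picked for small p in these animals, so that count is no separate support.

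Ubxn6 (probe set 10931056) had log2 levels of 8.26, 8.38, 8.35 and 8.39 in the high-fat/high-fat animals, against 7.78, 8.10, 7.87, 7.95 and 7.97 in the chow/chow animals. The 4 high-fat/high-fat values lay close together and all above the highest chow/chow value. The difference was 0.42 log2 (SE 0.071, 95% confidence interval 0.27 to 0.56, 1.33-fold, limma adjusted p = 0.164), the smallest p of the comparison. Nfkbia stood at 8.94, 8.79, 8.81 and 9.23 in high-fat/high-fat muscle, against 8.26, 8.66, 8.51, 8.15 and 8.45 in chow/chow muscle. Its groups were also apart, with replicate 4 the highest of the high-fat/high-fat animals. The difference of Nfkbia was 0.54 (SE 0.11, 1.45-fold, limma adjusted p = 0.165), the largest among these 10 higher genes.

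Crat, an abundant transcript in this muscle, read 12.14, 12.31, 12.25 and 12.18 in the high-fat/high-fat group, against 11.90, 11.90, 12.02, 11.94 and 12.01 in the chow/chow group. All high-fat/high-fat animals were above all chow/chow animals, by a narrow margin. The mean difference was 0.27 (SE 0.055, 95% confidence interval 0.15 to 0.38, 1.20-fold, limma adjusted p = 0.165). Pex19 read 10.04, 10.32, 10.30 and 10.15 in high-fat/high-fat animals, against 9.66, 9.88, 9.72, 9.80 and 9.86 in chow/chow animals. Again the groups were apart, and a further probe set of Pex19 differed by 0.36, beside 0.42 for the one used (SE 0.090, limma adjusted p = 0.165). Pxmp4 averaged 9.52 ± 0.15 in the high-fat/high-fat group and 9.17 ± 0.029 in the chow/chow group (SD, n = 4 and 5), a difference of 0.35 (SE 0.077). Its spread was wider in the high-fat/high-fat group, where replicate 2 read 9.73 and replicate 4 read 9.37. The other higher genes differed by 0.46 (Aurka, a dim transcript), 0.42 (Rps15), 0.35 (Fam53a), 0.34 (Tmem192) and 0.32 (Mrps11), each at limma adjusted p = 0.165.

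**Figure D1:**
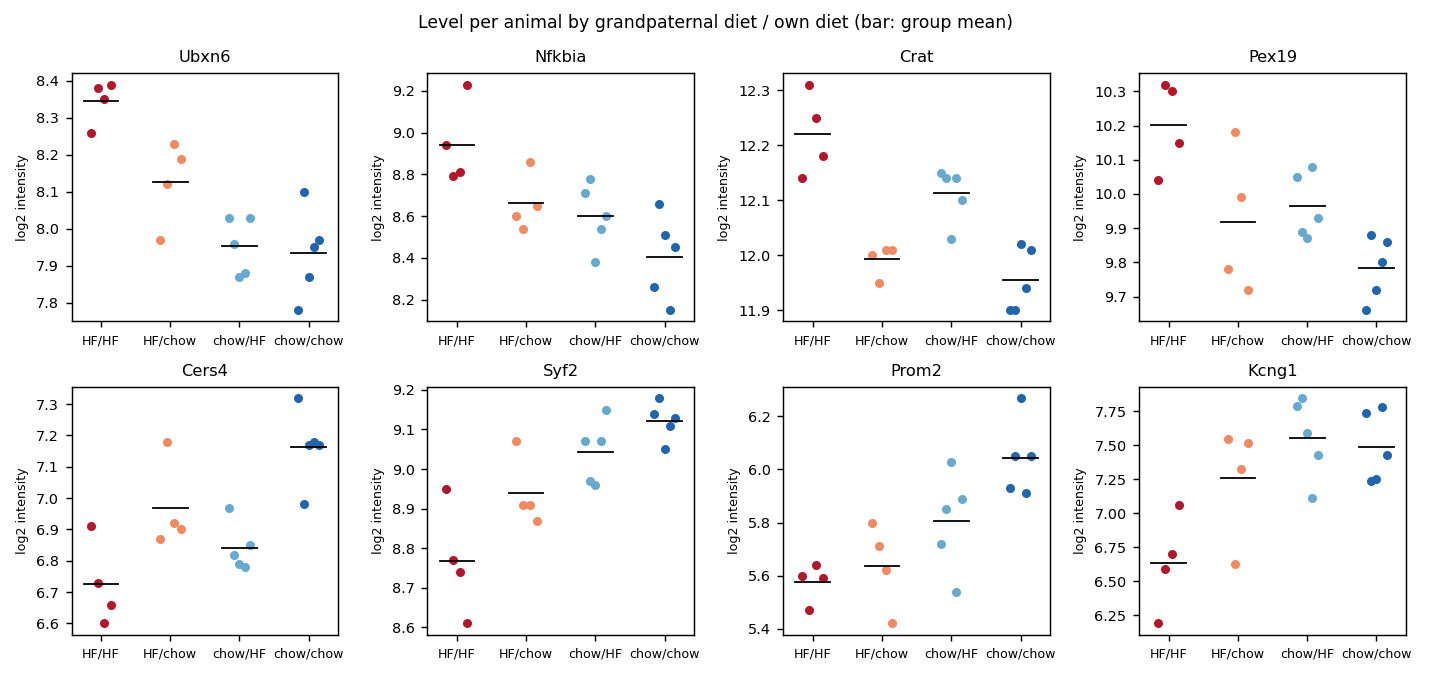
Log2 intensity (vertical axes) of 4 higher and 4 lower genes in each of the 18 animals, grouped by grandfather's diet and own diet, with the high-fat/high-fat group at the left and the chow/chow group at the right; points are animals and bars are group means. In these 8 genes no high-fat/high-fat animal overlaps a chow/chow animal, and the groups with 1 exposure lie between or beside them.

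On the lower side, Cers4 read 6.91, 6.73, 6.60 and 6.66 in the high-fat/high-fat group, against 7.32, 6.98, 7.17, 7.18 and 7.17 in the chow/chow group. The highest high-fat/high-fat animal, replicate 1, came within 0.1 log2 of the lowest chow/chow animal. The difference was -0.44 (SE 0.081, 95% confidence interval -0.61 to -0.27, limma adjusted p = 0.165), or 1.35-fold lower. Anp32a read 9.61, 9.36, 9.20 and 8.94 in high-fat/high-fat muscle, against 9.86, 9.83, 9.82, 9.70 and 9.86 in chow/chow muscle. Replicate 1 was the high-fat/high-fat animal nearest to the chow/chow animals in Cers4, Syf2, Anp32a, Rpl14l2, C1d, Snrpg and Rapgef4. Replicate 4 was the farthest from them in Syf2, Anp32a, Rpl14l2, Snrpg and Rapgef4, but the nearest in Ptms and Kcng1. The differences were -0.54 for Anp32a (SE 0.11), -0.36 for Syf2 (SE 0.069), -0.47 for C1d (SE 0.11) and -0.45 for Snrpg (SE 0.10).

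Kcng1 had the largest difference of the 20 genes, with 6.19, 6.59, 6.70 and 7.06 in the high-fat/high-fat animals against 7.74, 7.24, 7.25, 7.78 and 7.43 in the chow/chow animals. Both groups were widely spread but apart. The difference was -0.85 (SE 0.20, 95% confidence interval -1.26 to -0.44, 1.81-fold lower, limma adjusted p = 0.185). Prom2, a dim transcript, averaged 5.58 ± 0.073 in the high-fat/high-fat group and 6.04 ± 0.14 in the chow/chow group (SD, n = 4 and 5). Rpl14l2, Ptms and Rapgef4 differed by -0.44, -0.34 and -0.34. Transcripts of ribosomal proteins such as Rps15 and Rpl14l2 have near-identical copies elsewhere in the genome, so their probe sets may read several loci.

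The 3 well columns named in the sample titles, whose meaning the labels do not explain, each held animals of both groups. Column 5 held 1 high-fat/high-fat and 3 chow/chow animals, column 7 held 1 of each and column 9 held 2 and 1. Since the groups of the 20 genes do not overlap, their direction within a column was fixed by the choice of genes, and only the sizes are given. For Ubxn6 the difference was 0.41, 0.52 and 0.36 log2 in columns 5, 7 and 9. For Kcng1 it was -0.89, -0.19 and -1.04, so that the animals of column 7 differed least.

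Genes of fatty acid oxidation were higher as a group. Of 24 measured members 22 were higher in high-fat/high-fat muscle and 14 had an unadjusted p under 0.05 in that direction (5.65% of all genes did), with 0 in the other direction and 0 past the adjusted threshold. Their median difference was 0.23 log2, beside -0.0044 over all genes. This list, like the others, was drawn up with results of these data known. At the carnitine shuttle stood Crat, Cpt1b, which forms acylcarnitines at the outer mitochondrial membrane of muscle, Slc25a20, the carrier that exchanges them across the inner membrane, and Cpt2, which returns them to CoA esters. Cpt1b read 11.35, 11.44, 11.33 and 11.21 in the high-fat/high-fat group, against 11.16, 11.12, 11.19, 11.09 and 11.09 in the chow/chow group. Its groups were apart, with replicate 4 the lowest of the high-fat/high-fat animals (difference 0.20, SE 0.057, limma adjusted p = 0.235). Slc25a20 differed by 0.40 (SE 0.13, limma adjusted p = 0.29), and here replicate 4, at 9.51, lay among the chow/chow animals, whose values ran from 9.31 to 9.71.

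In the beta-oxidation spiral, Hadhb, a subunit of the trifunctional protein, read 11.55, 11.67, 11.61 and 11.60 in high-fat/high-fat muscle, against 11.38, 11.39, 11.40, 11.40 and 11.36 in chow/chow muscle. All high-fat/high-fat animals lay above a very tight chow/chow group (difference 0.22, SE 0.069, limma adjusted p = 0.29). Its partner subunit Hadha differed by 0.27. The short-chain dehydrogenase Acads differed by 0.38, the thiolase Acaa2 by 0.43 and the isomerases Ech1 and Eci2 by 0.37 each. Decr1, the reductase that unsaturated fatty acids require, read 8.59, 8.28, 8.05 and 7.96 in the high-fat/high-fat group, against 7.93, 7.93, 8.19, 7.61 and 7.80 in the chow/chow group. These groups overlapped, with a difference of 0.33 (SE 0.13, limma adjusted p = 0.384). The medium-chain and long-chain dehydrogenases Acadm and Acadl differed by 0.038 and 0.040, and the members that were lower were Acat1 (-0.061) and Eci1 (-0.0049).

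**Figure D2:**
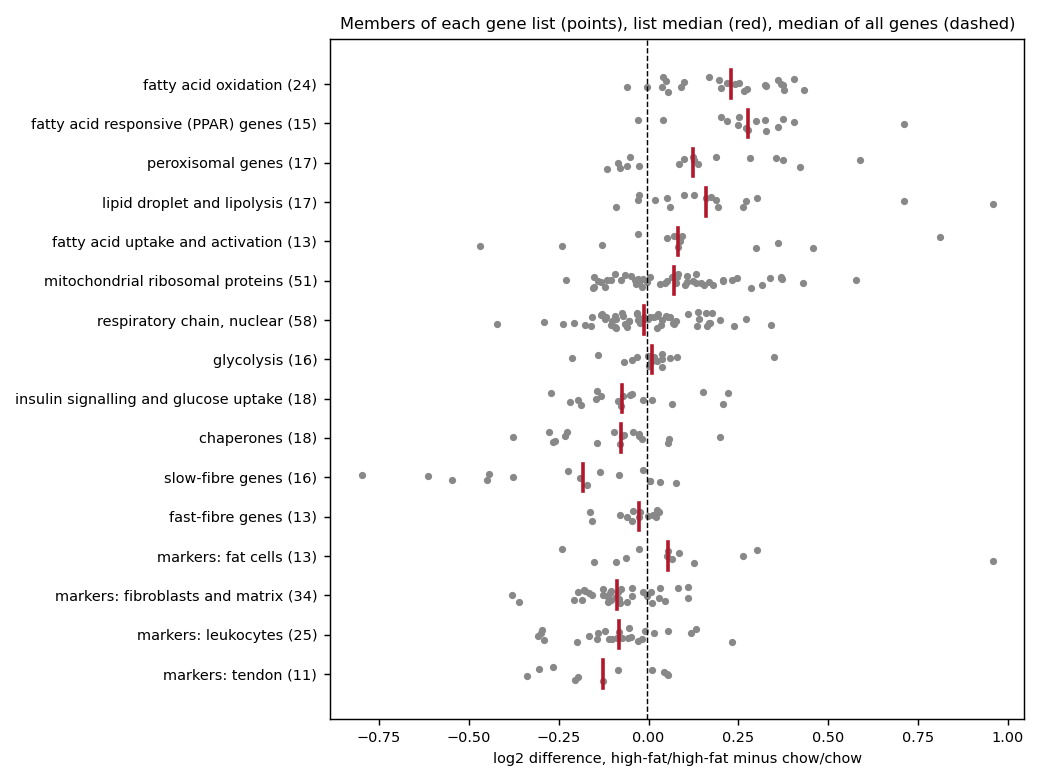
Log2 difference, high-fat/high-fat minus chow/chow (horizontal axis), of every measured member of 16 gene lists (grey points; the number of members in brackets), with the median of each list in red and that of all 12642 genes as a dashed line. The oxidation and fatty acid responsive lists have medians of 0.23 and 0.28, and the slow-fibre list spreads widely to the left with a median of -0.18.

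Genes known to respond to fatty acids through PPAR receptors were higher in 14 of 15 members, with a median of 0.28 log2 and 7 at an unadjusted p under 0.05. The oxidation list shares 6 of them (25% of its own members and 40% of the responsive ones). Plin5, which coats lipid droplets and tethers them to mitochondria, read 8.24, 8.90, 7.99 and 7.62 in the high-fat/high-fat animals, against 8.09, 7.42, 7.37, 7.03 and 7.47 in the chow/chow animals. Chow/chow replicate 1 lay among the high-fat/high-fat animals, so the groups overlapped (difference 0.71, SE 0.23, 1.64-fold, limma adjusted p = 0.29). Pdk4, the kinase that restrains pyruvate oxidation, differed by 0.25 (SE 0.14, limma adjusted p = 0.556). The uncoupling protein Ucp3 differed by 0.30 (SE 0.24) and Angptl4, a secreted inhibitor of lipoprotein lipase, by 0.36 (SE 0.41), each with overlapping groups. Angptl4 was 7.99 in high-fat/high-fat replicate 1 and 6.90 in replicate 4, a spread larger than its difference.

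High-fat/high-fat replicate 4 read low in both groups of genes. An animal's score is its mean over the members of a list, with the 18-array mean of every gene subtracted first. For oxidation it was 0.15, 0.32, 0.11 and -0.097 in the high-fat/high-fat animals, against -0.053, -0.10, -0.016, -0.17 and -0.11 in the chow/chow animals. Thus 3 high-fat/high-fat animals lay above all chow/chow animals and replicate 4 lay among them. Without replicate 4 the oxidation list had 23 of 24 members higher, 15 at an unadjusted p under 0.05 and a median of 0.28. Without replicate 2, the highest animal, 21 were higher, 6 had such a p and the median was 0.18. In well columns 5, 7 and 9 the median of the list was 0.22, -0.067 and 0.28, and column 7 rests on replicate 4 against 1 chow/chow animal. The responsive list had 4 members at an unadjusted p under 0.05 without high-fat/high-fat replicate 2 or without chow/chow replicate 4.

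Lipid droplet and lipolysis genes were higher in 14 of 17 members (median 0.16, 4 at an unadjusted p under 0.05). Aqp7, the channel through which glycerol leaves after lipolysis, read 7.94, 8.22, 7.68 and 6.53 in high-fat/high-fat muscle, against 7.21, 6.58, 6.97, 5.92 and 6.49 in chow/chow muscle. Replicate 4 lay among the chow/chow animals, and the other 3 lay above them (difference 0.96, SE 0.34, 1.94-fold, limma adjusted p = 0.313). Dgat1, which makes triglyceride, differed by 0.19 (SE 0.071) and Pnpla2, the lipase that opens its breakdown, by 0.19 (SE 0.084). Plin4, another droplet coat protein, differed by -0.025. Without high-fat/high-fat replicate 2 the list had 2 members at an unadjusted p under 0.05 and a median of 0.088. Without replicate 4 it had 6 and a median of 0.18. In well columns 5, 7 and 9 the median of the list was 0.038, -0.0355 and 0.26, so it was largest in column 9.

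Several markers particular to fat cells were at low levels. Adipoq, made by fat cells, read 5.91, 6.44, 5.94 and 6.42 in the high-fat/high-fat group, against 6.48, 6.73, 6.43, 5.61 and 5.94 in the chow/chow group. These groups overlapped throughout (difference -0.063, SE 0.28, limma adjusted p = 0.951). Plin1, Lep, Cidec and Retn stayed at or under 5.90 on all 9 arrays. Other members of the list were brighter, such as Plin4, which averaged 10.31 in the high-fat/high-fat group and 10.34 in the chow/chow group, and the hormone-sensitive lipase Lipe, which averaged 8.62 and 8.36. Of 13 measured fat-cell markers 8 were higher (median 0.054), with 1 at an unadjusted p under 0.05 (3 without high-fat/high-fat replicate 4), and their summed level ran from 2938 to 4467 in high-fat/high-fat animals and from 2902 to 3942 in chow/chow animals. That list shares 6 members with the droplet list, Aqp7 among them. In whole muscle, fewer cells of a type and less RNA per cell cannot be told apart.

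Among uptake and activation genes 9 of 13 were higher (median 0.083), with 4 higher and 1 lower at an unadjusted p under 0.05. Slc27a1, the main fatty acid transport protein of muscle, read 8.36, 8.54, 8.79 and 8.21 in the high-fat/high-fat group, against 7.14, 7.51, 8.10, 7.51 and 8.08 in the chow/chow group. All high-fat/high-fat animals lay above all chow/chow animals (difference 0.81, SE 0.26, 1.75-fold, limma adjusted p = 0.29). The acyl-CoA synthetases Acsl1 and Acsl4 differed by 0.36 (SE 0.14) and 0.30 (SE 0.11), and Gpihbp1, which holds lipoprotein lipase on capillaries, by 0.46 (SE 0.18). The synthetase Acsf2 differed by -0.47, and lipoprotein lipase itself, Lpl, by 0.052. Without high-fat/high-fat replicate 2 there were 2 members higher at an unadjusted p under 0.05. In well columns 5, 7 and 9 the median of the list was 0.072, -0.039 and 0.29.

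Peroxisomal genes were higher in 11 of 17 members (median 0.12, 5 at an unadjusted p under 0.05 and 0 lower). Beside Pex19 and Pxmp4 stood Nudt7, a peroxisomal hydrolase of coenzyme A, with 8.83, 9.06, 8.58 and 8.25 in the high-fat/high-fat group against 8.42, 8.04, 8.02, 7.83 and 8.15 in the chow/chow group. Its groups overlapped by replicate 4 alone (difference 0.59, SE 0.14, limma adjusted p = 0.199). Pex11a, which drives peroxisome division, differed by 0.28. Catalase, Cat, differed by 0.14, and the bifunctional enzyme Hsd17b4 by -0.12. Without high-fat/high-fat replicate 2 the median was 0.067.

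PPAR receptors bind repeats of the hexamer AGGTCA, and the NF-kB form searched was GGG, any pair of bases, then TTTCC. Both motifs were looked for on both strands in the 250 bases before each gene's start, in RefSeq sequence of build GRCr8. The promoters below belong to the lipid genes of large difference that hold the hexamer, and to Nfkbia. Capitals mark the match. Plin5 (chr9:1033285-1033534, minus strand) holds AGGTCA 157 bases before its start, Slc27a1 (chr16:18312717-18312966, plus strand) holds it on the opposite strand, as TGACCT, 242 bases before its start, and Nfkbia (chr6:78597073-78597322, minus strand) holds the NF-kB form on the opposite strand 31 bases before its start.
Plin5: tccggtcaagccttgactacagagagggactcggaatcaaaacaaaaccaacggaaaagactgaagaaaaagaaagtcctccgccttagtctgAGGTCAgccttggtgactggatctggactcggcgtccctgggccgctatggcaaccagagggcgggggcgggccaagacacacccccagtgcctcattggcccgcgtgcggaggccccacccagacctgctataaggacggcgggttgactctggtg
Slc27a1: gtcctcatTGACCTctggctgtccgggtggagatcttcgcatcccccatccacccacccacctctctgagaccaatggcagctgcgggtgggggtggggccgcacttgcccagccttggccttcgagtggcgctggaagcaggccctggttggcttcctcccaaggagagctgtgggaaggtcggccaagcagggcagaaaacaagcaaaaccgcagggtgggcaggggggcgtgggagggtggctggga
Nfkbia: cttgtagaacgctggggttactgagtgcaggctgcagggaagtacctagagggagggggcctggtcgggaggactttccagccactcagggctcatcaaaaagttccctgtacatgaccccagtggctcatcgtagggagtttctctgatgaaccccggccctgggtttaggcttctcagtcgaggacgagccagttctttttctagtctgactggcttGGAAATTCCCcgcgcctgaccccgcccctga
The hexamer stood in 13.7% of 27457 promoters, in 11 of the 60 matched promoters of 74 fatty acid genes (18.3%) and in 0 of 18 matched promoters of the 20 genes of smallest p. The NF-kB form stood in 1.28% of all promoters and in 1 of those 18. A match describes letters in this window only, and the absence of one in Crat, for example, says nothing about the receptor.

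In RefSeq gene order Ubxn6 has Hdgfl2, Plin4 and Plin5 to one side, a neighbourhood looked at after the values were seen. Hdgfl2 differed by 0.12 (SE 0.085) and Plin4 by -0.025 (SE 0.088), between Ubxn6 at 0.42 and Plin5 at 0.71. Beyond Plin5, Lrg1 differed by -0.025, and on the other side of Ubxn6, Chaf1a differed by -0.082.

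Mitochondrial ribosomal proteins, which translate the genes of the mitochondrial genome, were higher in 31 of 51 members (median 0.072). Of these, 11 were higher and 1 lower at an unadjusted p under 0.05, and 7 had no overlap between the groups, where 2.6% of all genes were apart in that direction. Mrpl47, of the large subunit, read 9.90, 9.96, 10.03 and 9.99 in the high-fat/high-fat group, against 9.78, 9.34, 9.27, 9.23 and 9.34 in the chow/chow group. The high-fat/high-fat animals lay together above a chow/chow group of which replicate 1 was the nearest (difference 0.58, SE 0.14, 1.49-fold, limma adjusted p = 0.199). Mrpl34 differed by 0.37 (SE 0.10) and Mrpl12 by 0.28 (SE 0.086), both with groups apart. Mrpl50 was the member lower at an unadjusted p under 0.05 (-0.23). The median was 0.029 without high-fat/high-fat replicate 1, when 6 members were lower at such a p, and 0.028 without replicate 2. In well columns 5, 7 and 9 it was 0.0070, -0.081 and 0.10.

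Nuclear genes of the respiratory chain, many of whose partners those ribosomes make, had no common direction. Of 58 members 27 were higher (median -0.013), with 8 higher and 6 lower at an unadjusted p under 0.05. The groups were apart for 8 members on the higher side and 2 on the lower (2.6% and 2.32% of all genes). A raised share of members apart on the higher side was thus not particular to the mitochondrial ribosomal list. Uqcrq of complex III differed by 0.34, Ndufb7 and Ndufa7 of complex I by 0.27 and 0.24, and Ndufa1 and Ndufb3, also of complex I, by -0.42 and -0.29. Ndufa1 read 9.15, 8.74, 8.22 and 8.17 in high-fat/high-fat muscle, against 9, 9, 8.95, 9.09 and 8.92 in chow/chow muscle. Its high-fat/high-fat values were far more spread than its chow/chow values, with replicate 1 above all chow/chow animals and the other 3 below them. Without replicate 4 there were 8 higher and 0 lower members at an unadjusted p under 0.05, and without replicate 1 there were 7 and 12. The median passed to the higher side of that of all genes without chow/chow replicate 3 or without high-fat/high-fat replicate 3 or 4. Cytosolic ribosomal proteins were higher in 19 of 44 (median -0.059, but not below that of all genes without high-fat/high-fat replicate 4), but at an unadjusted p under 0.05 there were 5 higher and 3 lower, and 5 were apart on the higher side against 2 on the lower. The higher ones included Rps15, the member of largest difference (0.42, SE 0.090), and Rpl29 (0.31, SE 0.091), and the lower ones Rpl5 (-0.28, SE 0.085) and Rpl22 (-0.30, SE 0.13). Without high-fat/high-fat replicate 1 there were 5 higher and 11 lower at such a p.

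Genes of glucose handling were followed in the lists of insulin signalling and uptake and of glycolysis. Slc2a4, the insulin-responsive glucose transporter, read 11.19, 10.97, 10.77 and 10.76 in the high-fat/high-fat group, against 11.22, 11.22, 11.18, 11.23 and 11.14 in the chow/chow group. Here 3 high-fat/high-fat animals lay below all chow/chow animals and replicate 1 lay among them (difference -0.27, SE 0.096, limma adjusted p = 0.313). Of 18 insulin signalling and uptake genes 5 were higher (median -0.074), with 2 in each direction at an unadjusted p under 0.05. Those were the kinases Akt1 (0.22) and Pdpk1 (0.21) on the higher side, and Slc2a4 and Pik3ca (-0.14), a catalytic subunit of phosphoinositide 3-kinase, on the lower side. Without normalization between arrays 10 of the 18 were higher, with a median of 0.013 beside 0.053 over all genes. Glycolytic genes were higher in 10 of 16 (median 0.011), with 0 at an unadjusted p under 0.05, and turned to the lower side of all genes as deposited and with arrays centred on their medians.

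Fbxo32, a ubiquitin ligase of muscle atrophy, read 11.71, 11.96, 12.21 and 12.16 in the high-fat/high-fat group, against 11.68, 11.59, 11.70, 11.76 and 11.94 in the chow/chow group. These groups overlapped (difference 0.28, SE 0.10, limma adjusted p = 0.334). The atrophy and autophagy list was higher in 13 of 18 members with a median of 0.020, and 3 were higher and 1 lower at an unadjusted p under 0.05. Leaving out single animals moved this small median between 0.0060, without high-fat/high-fat replicate 2 (9 of 18 higher), and 0.058, without high-fat/high-fat replicate 3, and it was 0.10 as deposited. Without high-fat/high-fat replicate 4 there were 0 members at such a p in either direction. Bnip3, a mitophagy receptor, and Ddit4, a stress-induced inhibitor of mTOR, differed by 0.17 (SE 0.077) and 0.50 (SE 0.23). Ddit4 was the highest member, but the lowest member of the list differed by -0.52. Ddit4 and Mstn, the growth inhibitor myostatin, were highest among the high-fat/high-fat animals in replicate 4, at 8.57 and 9.23. Chow/chow replicate 2 also read 8.57 for Ddit4.

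Chaperones were lower in 15 of 18 members (median -0.077), where 51.4% of all genes were lower by sign. At an unadjusted p under 0.05, 4 members were lower, where 5.01% of all genes were. Hspe1, the mitochondrial co-chaperonin, read 10.40, 9.97, 9.85 and 9.73 in high-fat/high-fat muscle, against 10.36, 10.41, 10.36, 10.35 and 10.33 in chow/chow muscle. Replicate 1 lay among the chow/chow animals and the other 3 lay below them (difference -0.38, SE 0.11, limma adjusted p = 0.235). Hsp90b1 of the endoplasmic reticulum differed by -0.26 (SE 0.086), and Hspb1 and Dnaja1 by -0.28 and -0.27. Without high-fat/high-fat replicate 2 or 3, or chow/chow replicate 4, there were 2 members lower at an unadjusted p under 0.05, and without replicate 4 of the high-fat/high-fat group the median was -0.047.

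The direction of the slow-fibre genes in this comparison depended on 1 animal. Myh7, the slow myosin heavy chain, read 11.09, 11.32, 11.23 and 9.53 in the high-fat/high-fat animals, against 11.62, 10.99, 11.64, 10.90 and 11.06 in the chow/chow animals. Replicate 4 was far below the other 8 animals, and the remaining 3 of its group lay within the chow/chow range (difference -0.45, SE 0.42, limma adjusted p = 0.739). The same animal read 7.21 for the slow troponin Tnnc1 and 8.18 for Tnnt1, where the other 8 animals ran from 9.23 to 10.31 and from 9.90 to 10.86. Of 16 slow-fibre genes 12 were lower with a median of -0.18 and 0 at an unadjusted p under 0.05. Without replicate 4, 9 were higher and the median was 0.055. Leaving out any other animal kept it lower, between -0.063 without chow/chow replicate 1 and -0.41 without high-fat/high-fat replicate 2. Low slow-fibre values were not particular to replicate 4 in the whole series. Myh7 read 8.82 in high-fat/chow replicate 3 and 9.84 in chow/high-fat replicate 2. Against chow/chow the list median was -0.62 with the grandfather's diet alone and -0.29 with the own diet alone. Fast-fibre genes were lower in 9 of 13, with a median of -0.025.

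**Figure D3:**
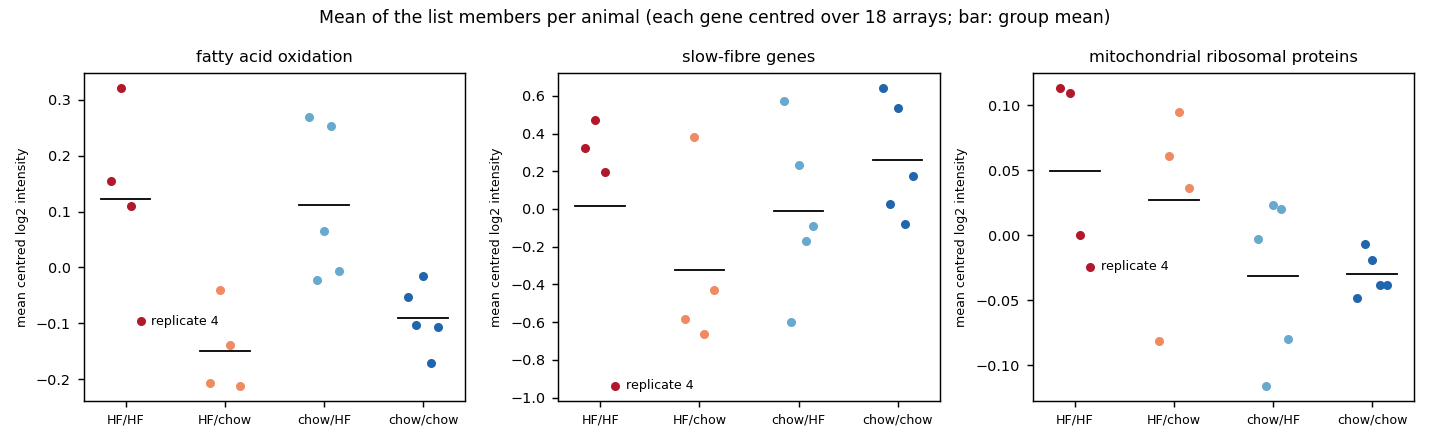
Score of each animal (mean centred log2 intensity of the list's members, vertical axes) for 3 lists, grouped by grandfather's diet and own diet, with the high-fat/high-fat group at the left and the chow/chow group at the right; points are animals and bars are group means. High-fat/high-fat replicate 4 has the lowest score of its group in all 3 lists, at -0.097 for oxidation and -0.94 for slow-fibre genes.

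Markers of connective tissue and leukocytes mostly read slightly lower in high-fat/high-fat animals. Fibroblast and matrix genes were lower in 26 of 34 (median -0.089, 0 at an unadjusted p under 0.05), with Col1a1 and Col1a2, the chains of type I collagen, differing by -0.36 (SE 0.21) and -0.38 (SE 0.19). The summed level of the list ran from 17200 to 19930 in high-fat/high-fat animals and from 17090 to 23400 in chow/chow animals. Without chow/chow replicate 5 its median was -0.034, without high-fat/high-fat replicate 3 it was -0.044, and without chow/chow replicate 3 it was -0.14. Without normalization between arrays 16 of the 34 were higher, with a median of -0.013 beside 0.053 over all genes. Leukocyte markers were lower in 20 of 25 (median -0.082). At an unadjusted p under 0.05, 2 of them were lower, not far from the share of all genes (5.01%). Their sums were 2950 to 3572 in the high-fat/high-fat group and 2776 to 4059 in the chow/chow group. Cd53, a leukocyte tetraspanin, differed by -0.30 (SE 0.094) and Ctss, a macrophage protease, by -0.30 (SE 0.13). The leukocyte median was -0.13 without high-fat/high-fat replicate 4 or chow/chow replicate 3, and -0.045 without high-fat/high-fat replicate 2 or chow/chow replicate 4. Tendon markers had a median of -0.13 over 11 genes, with sums of 3464 to 4701 in the high-fat/high-fat group and 3663 to 5403 in the chow/chow group. Leaving out chow/chow replicate 1, 3 or 5 gave medians of -0.043, -0.20 and -0.075, and leaving out high-fat/high-fat replicate 2 gave -0.073. The part of these markers in the differences above was not tested.

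Interferon-stimulated genes were lower in 15 of 21 members (median -0.055), with 1 higher and 2 lower at an unadjusted p under 0.05. The member of largest difference was higher, Ifit1, an RNA-binding antiviral protein (0.70, SE 0.26, limma adjusted p = 0.333). The member of smallest p was lower, Ifi27, which read 8.38, 8.19, 8.34 and 7.71 in the high-fat/high-fat group against 8.82, 8.40, 8.87, 9.03 and 8.89 in the chow/chow group. The groups of Ifi27 were just apart (difference -0.65, SE 0.16, 1.57-fold lower, limma adjusted p = 0.199). Oas1a, an RNA-sensing synthetase, differed by -0.28 (SE 0.12). Without chow/chow replicate 4, 11 members were higher and the median of the list was no longer below that of all genes. Red blood cell markers varied between animals rather than between groups. Hbb, a beta globin, read 11.43, 11.55, 9.65 and 9.39 in the high-fat/high-fat animals, against 10.32, 10.54, 9.66, 9.75 and 10.56 in the chow/chow animals. Thus the high-fat/high-fat group held both the highest and the lowest values, and the sign of the median over the 5 markers (0.21) turned without high-fat/high-fat replicate 1 or 2. The markers summed to between 1373 and 5634 there and between 1651 and 3005 in chow/chow animals.

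The design crosses both diets, so the combined difference can be set beside those of the groups with 1 exposure, all against the same 5 chow/chow animals. Since these comparisons share arrays, their values are given side by side and no overlap between them is drawn. Ubxn6 differed from chow/chow by 0.42 with both exposures, by 0.20 with the grandfather's diet alone and by 0.021 with the own diet alone. For Crat these differences were 0.27, 0.038 and 0.16, for Pxmp4 0.35, 0.016 and 0.28, and for Nudt7 0.59, -0.038 and 0.63. In these 3 lipid genes the group with its own high-fat diet alone lay nearer to the combined group than the group with the grandfather's diet alone. For Prom2 the differences were -0.46, -0.40 and -0.23, and for Anp32a -0.54, -0.34 and -0.15, the other way round. Among the 20 genes of smallest p the grandfather's diet alone gave the single difference of larger size in 15, and Crat and Pxmp4 were not among these. Over all genes its differences were also the larger, with a median absolute size of 0.075 log2 against 0.057 for the own diet alone. The count of 15 is therefore not read as a trait of these 20 genes. For Kcng1 the differences were -0.85, -0.23 and 0.067.

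By gene group, the oxidation list had a median of 0.23 with both exposures, -0.055 with the grandfather's diet alone and 0.20 with the own diet alone. The responsive list had 0.28, -0.13 and 0.30, and the droplet list 0.16, -0.16 and 0.11. Mitochondrial ribosomal proteins had 0.072, 0.041 and -0.0027, and slow-fibre genes had -0.18, -0.62 and -0.29. Over all genes these medians were -0.0044, -0.0017 and -0.0031. Plin5, Decr1 and Aqp7 all read lower than chow/chow with the grandfather's diet alone (-0.35, -0.27 and -0.45) and higher with the own diet alone (0.58, 0.58 and 1.22).

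**Figure D4:**
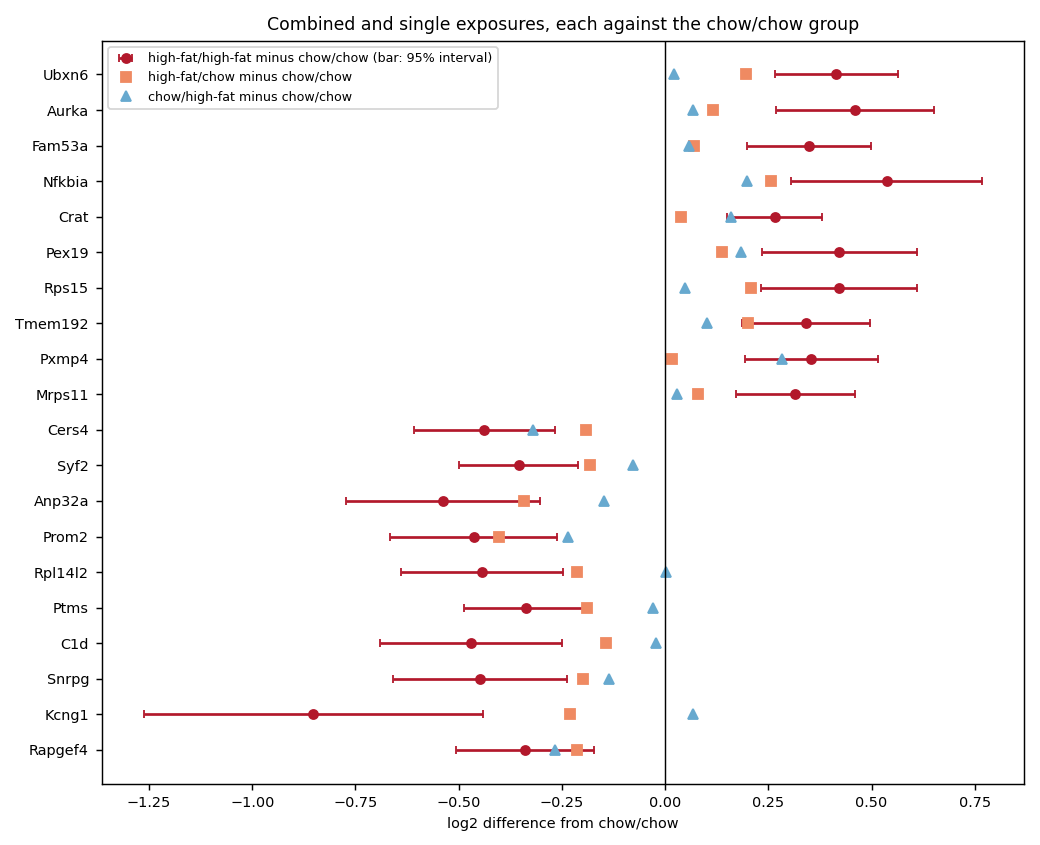
Log2 difference from the chow/chow group (horizontal axis) of the 20 genes of smallest p: both exposures (circles, with 95% confidence intervals), the grandfather's high-fat diet alone (squares) and the own high-fat diet alone (triangles). The genes were chosen on the circles. Crat and Pxmp4 have their triangles nearer to the circle, whereas Prom2 and Anp32a have their squares nearer.

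Whether the combined difference departs from the sum of both single differences was tested with the interaction term. limma called 0 of 12642 genes (0%), and the smallest adjusted p was 0.546. An unadjusted p under 0.05 was found for 863 genes (6.83%). Among the 20 genes above, 4 had an unadjusted p under 0.05, namely Aurka, Fam53a, Mrps11 and Kcng1, and the smallest adjusted p was 0.666. These 20 genes were chosen on arrays that also enter the interaction, so the count of 4 is not read as a trait of them. Kcng1 differed by -0.85 with both exposures where the single differences sum to -0.16 (interaction -0.69, limma adjusted p = 0.666). Mrpl47 differed by 0.58 where they sum to -0.054 (interaction 0.63, limma adjusted p = 0.649), and Slc27a1 by 0.81 where they sum to 0.057 (interaction 0.75, limma adjusted p = 0.715). Nudt7, at 0.59 with both exposures, had single differences that sum to 0.59, and Crat, at 0.27, had a sum of 0.20. None of these departures passed.

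Sntb1, a syntrophin of the dystrophin complex, was the reverse case, with no difference between the ends of the design. It read 9.78, 10.12, 10.66 and 10.23 in the high-fat/high-fat group, against 10.24, 10.37, 10.10, 10.27 and 9.97 in the chow/chow group. The groups overlapped throughout (difference 0.0036, SE 0.16, 95% confidence interval -0.33 to 0.34, limma adjusted p = 0.996). With the grandfather's diet alone it differed from chow/chow by -0.27, and with the own diet alone by -0.74. The interaction was 1.02 (limma adjusted p = 0.546), and it passed, at 1.31 and adjusted p = 0.0364, only without normalization between arrays.

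Scd, the stearoyl-CoA desaturase of lipid synthesis, read 8.40, 7.66, 8.38 and 8.40 in the high-fat/high-fat animals, against 8.74, 8.15, 7.74, 7.80 and 7.50 in the chow/chow animals. The groups overlapped (difference 0.22, SE 0.27, limma adjusted p = 0.804). Lipid synthesis genes were higher in 9 of 15 members (median 0.058, but 0.026 without high-fat/high-fat replicate 1 or 2 and 0.032 without chow/chow replicate 4), among them Fads1, a fatty acid desaturase (0.35, SE 0.12), and Agpat2, which makes phosphatidic acid (0.56, SE 0.25).

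With 1 probe set kept per symbol, 6 genes differed by more than 1 log2. They had wide spread in at least 1 group, and are named here after their values were seen. Alb, albumin, read 6.98, 6.28, 6.85 and 9.87 in the high-fat/high-fat group, against 5.62, 6.24, 4.16, 5.81 and 7.48 in the chow/chow group. Replicate 4 carries much of that difference of 1.64 (SE 0.60, limma adjusted p = 0.333). Mss51, a muscle protein linked to mitochondrial metabolism, read 8.49, 8.64, 8.38 and 8.47 in the high-fat/high-fat group, against 6.31, 7.08, 7.98, 7.91 and 8.16 in the chow/chow group. The high-fat/high-fat animals lay tightly together above a spread chow/chow group (difference 1.01, SE 0.47, limma adjusted p = 0.446). Cyp2j4, a cytochrome P450, differed by 1.43 (SE 0.40, limma adjusted p = 0.235), with chow/chow values from 6.17 to 8.49. The only lower one was Fam111a, with 4.36, 4.54, 4.52 and 7.86 in the high-fat/high-fat group against 7.99, 8.20, 7.58, 4.36 and 5.39 in the chow/chow group. Each group held animals near both ends of that range (difference -1.38, SE 0.91, limma adjusted p = 0.618). Adgrb2, an adhesion receptor, differed by 1.14 (SE 0.43, limma adjusted p = 0.344) and Zdhhc4, a palmitoyltransferase, by 1.02 (SE 0.38, limma adjusted p = 0.338), both with overlapping groups. When all probe sets were fitted, probe sets of Klf9 and Slain2 other than those kept differed by 1.61 and 1.68, and passed the adjusted threshold.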

How the data were processed

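RNA of 18 muscles, 200 ng per array, was hybridized to Affymetrix whole-transcript arrays, per the labels' protocols. The deposited table holds an intensity per probe set on a linear scale, made with Affymetrix Expression Console and PLIER, per the submitters' processing notes; their versions and settings are not given in the sources used here, nor is a genome build. For arrays the number of animals, not depth, limits the precision.

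From these, log2(intensity + 16) was taken and quantile normalized, since array medians spanned 0.341 log2, over the 0.1 set for this. Of 20917 probe sets, 18197 had 1 gene symbol, 960 several and 1760 none; Entrez identifiers of 18052 matched RefSeq GRCr8 and 0 symbols changed. The probe set of highest mean was kept for each of 16856 symbols, and 12642 genes above the 25th percentile (5.28 log2) were tested. A group-means model on all 18 arrays was fitted with limma 3.58.1 in R 4.3.3, whose moderated tests were two-sided, with p-values adjusted after Benjamini and Hochberg over all genes of a comparison and a threshold of 0.05. On simulated data for this comparison with 12642 genes, 74.6% of genes changed by 0.5 log2, 100% of those changed by 1 and 100% of those changed by 2 were recovered, with 5 false calls among all genes. The simulated noise was normal and independent for each gene and array. Differences shared by many genes of an animal, or by relatives, were left out, so these shares are not the power of the real comparison.

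Genes named are the 10 of smallest p in each direction, the 3 or 4 leading members of lists described, and a panel of 14 (Aqp7, Plin5, Nudt7, Decr1, Cpt1b, Pdk4, Ucp3, Angptl4, Scd, Adipoq, Fbxo32, Slc2a4, Myh7 and Sntb1); further list members are given as examples chosen after their values were seen. The comparison, the 36 lists, the panel and the rule were chosen with earlier results of these data known. Replicates are numbered in record order. Over 16 pairs of arrays within both groups SDs of log2 differences were 0.189 or more, with no more than 0.0861% identical values, so no array was taken as a copy. Alternatives were other normalizations, offsets, filters, probe set choices, variance models, blocks and covariates, and leaving out each animal. Chosen after seeing the data were leaving out the 2 arrays of lowest median, differences within well columns, and list counts without each animal.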

Additional observations from a re-analysis of the deposited data

Results flagged for a closer look

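Dixon's test was run in 272 groups of 4 or 5 animals, over 136 items, namely genes, list scores and the deposited array median. It marked 16 single animals as far from the rest of their group. Chance marks about 1 group in 20, so this count is near that share. High-fat/high-fat replicate 4 was marked 6 times, each time for a low value: Myh7 at 9.53, Tnnc1 at 7.21, Tnnt1 at 8.18 and Actn2 at 11.89, all of slow fibres or the sarcomere, and Hsp90b1 at 10 and Rpl7a at 9.93. The other 3 high-fat/high-fat animals ran from 11.1 to 11.3 for Myh7. In the same group, replicate 2 was low for Scd at 7.66 and high in the score of imprinted genes at 0.0502, and replicate 3 was high for Ifit2 at 7.39.

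Among chow/chow animals, replicate 1 was high for Mrpl47 at 9.78 and replicate 4 low for Anp32a at 9.70, in both cases on the side toward the high-fat/high-fat animals. Replicate 3 was low for Ctss at 6.97 and high for Sod1 at 11.06, replicate 5 high for Col14a1 at 8.32 and in the score of vessel-wall markers at 0.188, and replicate 4 high for Tap1 at 6.30. No gene of 12642 passed the test of the interaction with limma, against 863 at an unadjusted p under 0.05.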

How the results depend on the processing

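The number of genes called, 0, stayed 0 in the other normalizations, offsets and filters, with trended and robust eBayes, array weights, the well column or neighbouring animal numbers as a block, the array median as a covariate and at an adjusted p of 0.10. It was 4 with all probe sets (Klf9, Slain2, Mapkbp1 and Ubxn6), 3 in a fit of the 9 arrays alone (Faul2, Smim20 and Snrpg) and 1347 at an unadjusted p under 0.05. Leaving out 1 animal of either group gave 0 to 10: without high-fat/high-fat replicate 1 it was 10, among them Ubxn6, Cers4, Syf2, Anp32a, C1d and Hspe1. Leaving out high-fat/chow replicate 1, which enters only the spread, gave 2 (Smim20 and Ubxn6). The number at an unadjusted p under 0.05 ran from 1035 to 1680 without single animals and from 1075 (as deposited) to 1678 (array weights) elsewhere. Departures from additivity stayed at 0, except for 1 gene, Sntb1, as deposited. In that setting the median of all genes was 0.053 for the high-fat/high-fat minus chow/chow difference. The median of the interaction over all genes was not taken there. None of the 20 genes of smallest p turned sign, but their groups do not overlap, so leaving out an animal could not turn it. Their choice thus fixed much of this outcome, which is no separate support. Of 99 named genes 6 turned sign in some setting (Adipoq, Alas2, Gpam, Hbb, Hbb-b1 and Sntb1). Among lists, oxidation medians ran from 0.18 to 0.28 over 22 settings, and 12 of 36 lists turned, relative to the median of all genes, in at least 1. These were the tricarboxylic acid cycle (9 settings), endothelium (6), respiratory chain, clock and imprinted genes (3 each), red blood cells, vessel wall, glycolysis and antioxidant genes (2 each), and slow-fibre, cytosolic ribosomal and interferon-stimulated genes (1 each). The causes were not tested. No paired analysis was possible because the titles carry no replicate numbers shared between groups; the well columns and neighbouring animal numbers used as blocks above are not labelled as pairs.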
